A study of Arabidopsis thaliana with 4 samples.

Results

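The RNA recovered on anti-GFP beads from nuclei of MTA-GFP plants was set directly against the RNA recovered on the same kind of beads from a control line. Both immunoprecipitates (IPs) came from Arabidopsis thaliana Col-0 plants 4 weeks old, grown in soil at 22 °C with 16 h of light and 8 h of dark. Leaves were crosslinked in 0.1% formaldehyde, nuclei were isolated, and GFP-Trap magnetic beads, which carry a GFP-binding protein, were used for the pull-down. One line is labelled MTA-GFP. The titles call the other line GFP while its genotype entry reads CFP, so it is referred to as the control. The labels give the tissue as leaf and as aerial tissue, and do not give the promoter that drives either transgene, the number of independent lines or the number of plants pooled. Each IP is 1 library of the 4 in the series. The input libraries of the same 2 lines, nuclear RNA before the pull-down, enter only where named, and share no library with the IPs.

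Loci were chosen as nuclear genes with at least 40 reads over the 2 IPs, which kept 13768 of the 23433 nuclear loci with a read in either IP. Their values are log2 ratios of MTA-GFP IP over control IP, scaled so that the typical nuclear locus lies near 0. On that scale 1 read of the control IP equals 3.99 reads of the MTA-GFP IP. The reads on nuclear loci, 17614963 and 12107831, differ by less than that, and the rest of the factor comes from the TMM step, which sets the typical locus and not the sum of reads near 0. Equal raw reads in both libraries are therefore about a 4-fold deficit in the MTA-GFP IP. Intervals are 95% intervals for counting error only. Calls of higher and lower need a difference of 2-fold or more and an interval that does not hold a ratio of 1. With 1 library in each group no difference has a replicate check, no p-value is given, and every statement compares 2 libraries and not the conditions behind them.

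MTA carries the methyltransferase activity of the nuclear writer complex, which places N6-methyladenosine (m6A) on newly made messenger RNA. In plants the complex also acts on primary transcripts of microRNAs, and YTH-domain proteins of the ECT family read the mark in the cytoplasm. A direct comparison of the 2 IPs asks which RNAs were recovered more with tagged MTA than with the control protein, without correcting for how much of each RNA was in the nuclei.

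The 2 libraries held 36098699 reads (MTA-GFP IP) and 45198238 reads (control IP), and differed most in their RNA classes. Nuclear mRNA took 8.43% of the MTA-GFP IP (95% Wilson interval 8.42 to 8.44) and 2.11% of the control IP (2.11 to 2.12). Chloroplast RNA took 5.88% of reads with MTA-GFP and 49.8% with the control, a ratio of shares of 0.118. Outside the organelles, the ratio of mRNA shares was 2.09 in place of 3.99. Flower identity genes were nearly absent, with 10 and 2 reads over 6 genes, while the 30 genes of light harvesting and the photosystems had between 762 and 32409 reads each in the MTA-GFP IP. Intervals treat reads as independent, which amplified reads without molecular identifiers are not.

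Against this scale 735 of 13768 loci were higher in the MTA-GFP IP (5.34%) and 483 were lower (3.51%). The middle 90% of loci lay between -0.85 and 1.13 on the log2 scale, with a median of 0.01. Loci called higher had few control reads, with a median of 74 reads in the MTA-GFP IP and 7 in the control IP. Loci called lower had medians of 60 and 46 reads. The minimum of 40 unscaled reads was passed mostly through the MTA-GFP IP, which had more nuclear reads, so a locus with few control reads could enter and one with few MTA-GFP reads could hardly do so. The balance of calls turned with depth. Among 4967 loci with 40 to 100 reads, 9.68% were higher and 4.55% lower, and among 544 loci with 1000 reads or more, 0.735% were higher and 10.5% lower. The calls were spread over the 5 chromosomes at 8.22% to 9.82% of the loci compared.

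**Figure D1:**
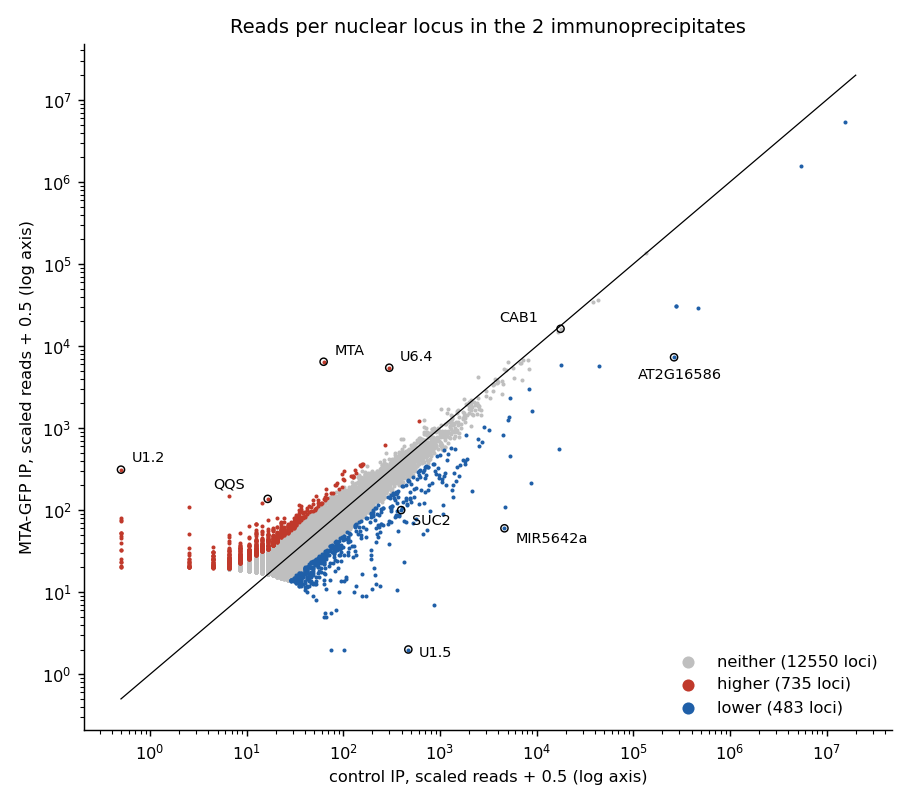
Scaled reads of each of the 13768 nuclear loci in the control IP (horizontal, log axis) and the MTA-GFP IP (vertical, log axis), with 0.5 reads added and the line of equality. The 735 higher loci lie mostly at low control reads, and the 483 lower loci reach up to loci at ribosomal DNA at the top right. MTA and U6.4 stand apart above the line.

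MTA itself (AT4G10760) had 12860 reads in the MTA-GFP IP and 31 in the control IP. The log2 ratio was 6.69 (6.19 to 7.26), the highest lower end of an interval among the loci compared. The inputs held 2291 and 64 reads of it, a log2 ratio of 5.98, so MTA transcript also separated the lines before the pull-down. Transcripts of the transgene and of the native gene are counted together here, and the part of the transgene was not tested. The other genes of the writer complex stayed inside the call rule. MTB (AT4G09980), the partner of MTA, had 195 and 46 reads and a ratio of 0.09 (-0.38 to 0.58). VIR (AT3G05680), the largest subunit, had 461 and 102 reads and a ratio of 0.18 (-0.13 to 0.50). FIP37, the WTAP homologue, was the lowest of the 6 writers compared, with 73 and 32 reads and a ratio of -0.80 (-1.43 to -0.16).

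None of the 12 readers was called in either direction, against 8.85% of all loci called, and their median was 0.07. ECT2, the YTH protein with most reads, had 1351 and 376 reads and a ratio of -0.15 (-0.32 to 0.02). The readers spanned -0.55 at ECT5 (307 and 113 reads) to 0.75 at ECT11 (61 and 9 reads). None of the 3 erasers compared was called, and ALKBH10B (AT4G02940), a demethylase acting on flowering genes, had 287 and 62 reads and a ratio of 0.21 (-0.19 to 0.63).

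The phloem markers, genes of the sugar-conducting tissue, had the lowest median of the lists of protein-coding genes. All 9 phloem markers compared lay below 0, 7 of them were called lower, against 3.51% of all loci, and none higher. Their median was -1.68 against 0.01 over all loci. Over all 12 listed markers the MTA-GFP IP held 981 reads (exact Poisson interval 921 to 1044) and the control IP held 718 (666 to 772), a summed log2 ratio of -1.55 (-1.69 to -1.41). SUC2, the sucrose transporter of companion cells, had 199 reads in the MTA-GFP IP and 198 in the control IP. Its log2 ratio was -1.99 (-2.28 to -1.70). AHA3 (HA3), a proton pump of companion cells, had 263 and 222 reads and a ratio of -1.75 (-2.02 to -1.49).

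The other called phloem genes cover several cell types of the tissue. NAKR1, which is needed for long-distance transport in phloem, had 24 and 25 reads and the lowest ratio of the list, -2.01 (-2.93 to -1.19). The sucrose exporters SWEET11 and SWEET12 of phloem parenchyma had ratios of -1.43 (35 and 24 reads) and -1.68 (33 and 27 reads). SEOR1, a filament protein of sieve elements, had 44 and 36 reads and a ratio of -1.69 (-2.38 to -1.03). PP2-A1, a phloem lectin, had 130 and 66 reads and a ratio of -1.01 (-1.46 to -0.57). The uncalled members were the sulfate transporter SULTR2;1 at -0.95 and SEOa at -0.49. In the inputs none of the 8 markers measured was lower, 2 were higher, and the median was 0.61, so the direction between the inputs was the opposite one. In bulk tissue, fewer cells of a type and less RNA per cell cannot be told apart. Neither these nor recovery on the beads was tested here.

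Epidermis markers lay on the other side. Of 7 markers, 2 were called higher, against 5.34% of all loci, none was lower, and the median was 0.81. LTP1 (LP1), a lipid transfer protein of the cuticle, had 1232 and 135 reads and a log2 ratio of 1.19 (0.93 to 1.46). KCS10, the FIDDLEHEAD elongase of the epidermis drawn as FDH, had 718 and 80 reads and a ratio of 1.17 (0.83 to 1.52). CUT1 (KCS6), the elongase of wax synthesis, had 994 and 138 reads and a ratio of 0.85 (0.59 to 1.12). ATML1, a homeodomain factor of epidermal identity, had 499 and 71 reads and a ratio of 0.81. The protoderm gene PDF1 at -0.40 and the wax gene CER3 at -0.30 lay below 0. The same 7 markers had a median of 0.77 between the inputs, where 1 was called higher. Guard cell and myrosin cell markers had a median of -0.19 over 9 genes, and only TGG2, a myrosinase, was called, with 589 and 297 reads and a ratio of -1.01 (-1.21 to -0.80).

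**Figure D2:**
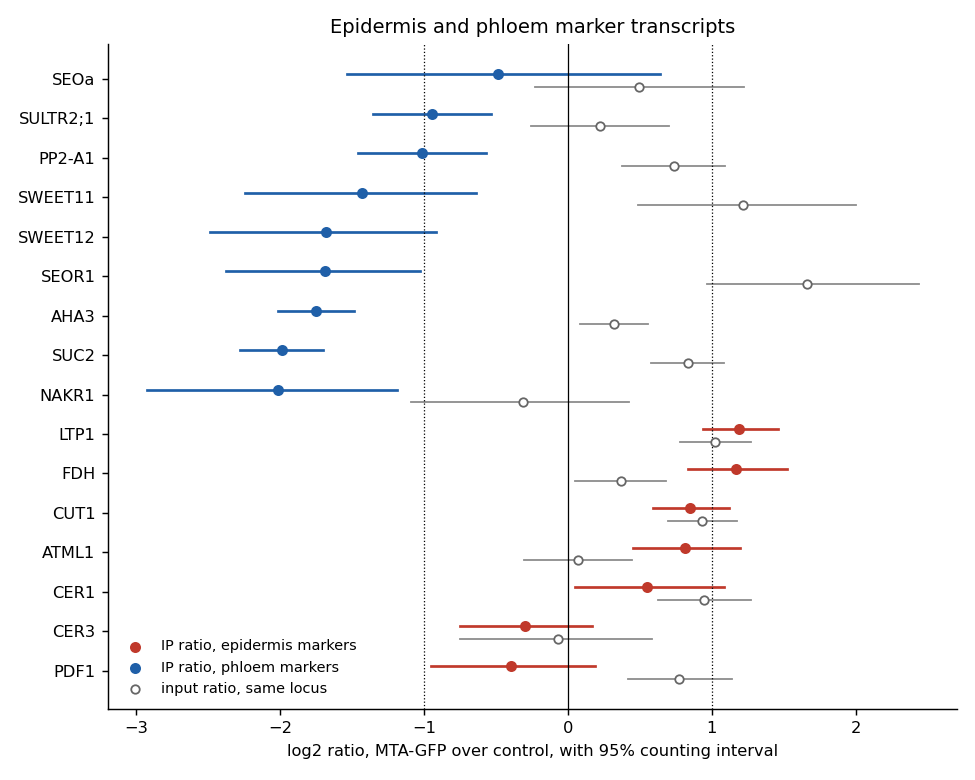
Log2 ratio of MTA-GFP over control for 9 phloem and 7 epidermis markers, with 95% counting intervals as lines. Filled points are the IP ratios and open points the input ratios at the same locus. The IP ratios of the phloem markers lie between -2.01 and -0.49, while their input ratios are mostly above 0.

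The most abundant leaf mRNAs were nearly equal between the 2 IPs. None of the 30 genes of light harvesting and the photosystems was called, and they spanned only -0.33 to 0.28 with a median of -0.12. CAB1, which encodes a light-harvesting chlorophyll protein, had 32409 and 8836 reads and a ratio of -0.12 (-0.16 to -0.09). LHB1B2, of the same family, had 29254 and 8346 reads and a ratio of -0.19 (-0.22 to -0.15). Between the inputs the same 30 genes had a median of 1.60 and 29 were called higher, against 6.92% of the 10815 loci measured there. The 21 genes of carbon fixation and photorespiration behaved alike, with none called between the IPs and a median of 0.04. RCA, which activates Rubisco, had 10394 and 2320 reads and a ratio of 0.17 (0.10 to 0.23). RBCS1A, a small subunit of Rubisco, had 12655 and 2530 reads and a ratio of 0.32 (0.26 to 0.39). Between the inputs the median of these 21 genes was 1.26, with 17 called higher.

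The next 4 genes, linked to darkness or low sugar, were picked because they were lower, and say nothing of other such genes. SEN1, a dark-inducible senescence gene, had 235 and 305 reads and a log2 ratio of -2.37 (-2.63 to -2.12). BT2, which encodes a BTB and TAZ domain protein, had 240 and 178 reads and a ratio of -1.56 (-1.85 to -1.28). DIN10, a raffinose synthase homologue, had 651 and 475 reads and a ratio of -1.54 (-1.72 to -1.37). AT3G15450 had 1125 and 716 reads and a ratio of -1.35 (-1.48 to -1.21). Their median between the inputs was -0.91. Of 15 starch genes 1 was higher and 1 lower. QQS, an Arabidopsis-specific gene that affects starch content, had 273 and 8 reads and a ratio of 3.06, and it also differed between the inputs, at 4.04. GBSS1, the synthase of amylose, had 63 and 40 reads and a ratio of -1.33 (-1.94 to -0.73), and its input ratio was 0.05. SEX1, the glucan water dikinase with the most reads of the list, had 3344 and 1138 reads and a ratio of -0.44 (-0.54 to -0.34).

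Only 3 of 14 flavonoid genes had enough reads, and they passed the minimum through the MTA-GFP IP, so their calls and median describe these 3 genes alone. Of the 3, 2 were called higher, against 5.34% of all loci. TT4, the chalcone synthase that opens the pathway, had 134 and 6 reads and a log2 ratio of 2.44 (1.32 to 3.96). AT4G14090, an anthocyanin glucosyltransferase, had 49 and 2 reads and a ratio of 2.48 (0.69 to 5.70). The third, F3H, had 36 and 6 reads and a ratio of 0.57 (-0.67 to 2.13). Over all 14 listed genes the summed reads were 319 and 33, a log2 ratio of 1.27 (0.76 to 1.84). The locus that overlaps TT4, AT5G13940, had 4 and 0 reads, and the whole run of overlapping loci that holds both had 805 and 221 reads, a summed ratio of -0.13 (-0.35 to 0.09). AT4G14090 lies in a run of overlapping loci with 83 and 8 reads in all, a ratio of 1.35 (0.33 to 2.64).

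Stress and hormone genes were called at about the rate of all loci (5.34% higher and 3.51% lower), so their counts set them apart in neither direction. Of 18 jasmonate genes 2 were higher and none lower, with a median of 0.28. ST2A, a hydroxyjasmonate sulfotransferase, had 99 and 10 reads and a ratio of 1.29 (0.37 to 2.41). VSP2, a storage protein induced by jasmonate, had 58 and 6 reads and a ratio of 1.24 (0.07 to 2.78). Of 16 salicylate genes only PBS3, an enzyme of salicylate synthesis, was called, with 97 and 11 reads and a ratio of 1.13 (0.24 to 2.19). WRKY33 in the same list had 1254 and 501 reads and a ratio of -0.67 (-0.82 to -0.52). LOX2, the lipoxygenase that opens jasmonate synthesis, had 3396 and 603 reads and a ratio of 0.50 (0.37 to 0.62), and the regulator MYC2 had 1176 and 285 reads and a ratio of 0.05 (-0.14 to 0.24). None of 18 touch and early stress genes was called, although the calmodulin-like TCH3, with 1174 and 560 reads, reached -0.93 (-1.08 to -0.78). None of the 15 clock genes was called. PRR5 (1179 and 560 reads) and PRR7 (1987 and 833 reads), daytime repressors of the clock, lay lowest at -0.92 and -0.74. Of 11 auxin genes, SHY2, a repressor of auxin response, was higher with 96 and 10 reads and a ratio of 1.24 (0.32 to 2.37). With the overlapping AT1G04230 (87 and 28 reads) the sum gave 0.27 (-0.24 to 0.81), which is not a call. The efflux carrier PIN7 had 651 and 195 reads and a ratio of -0.26.

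Several further lists had medians close to that of the typical locus. The 22 cytosolic ribosomal protein genes had a median of 0.18, the 14 nucleolar genes of ribosome assembly -0.02 and the 15 glucosinolate genes -0.15. The 14 cell cycle genes had -0.17 and the 7 heat shock genes 0.29. No member of these lists was called, against 8.85% of all loci, a share that gives few calls in lists this small. HSC70-1, a cytosolic chaperone, had 4474 and 879 reads and a ratio of 0.35 (0.25 to 0.46). NUC-L1, the nucleolin gene, had 820 and 258 reads and a ratio of -0.33 (-0.53 to -0.12). The 21 splicing factor genes with GRP7 and GRP8 had a median of -0.26 and no call. GRP7, an RNA-binding protein under clock control, had 13543 and 4058 reads and a ratio of -0.26 (-0.31 to -0.21). Of 8 genes used as references for quantification, AT4G34270 was called higher with 78 and 9 reads and 2.14-fold more in the MTA-GFP IP after scaling. The polyubiquitin gene UBQ10 had 4876 and 1486 reads and a ratio of -0.28 (-0.37 to -0.20). ACT2 had 1126 and 256 reads and a ratio of 0.14 (-0.06 to 0.34).

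**Figure D3:**
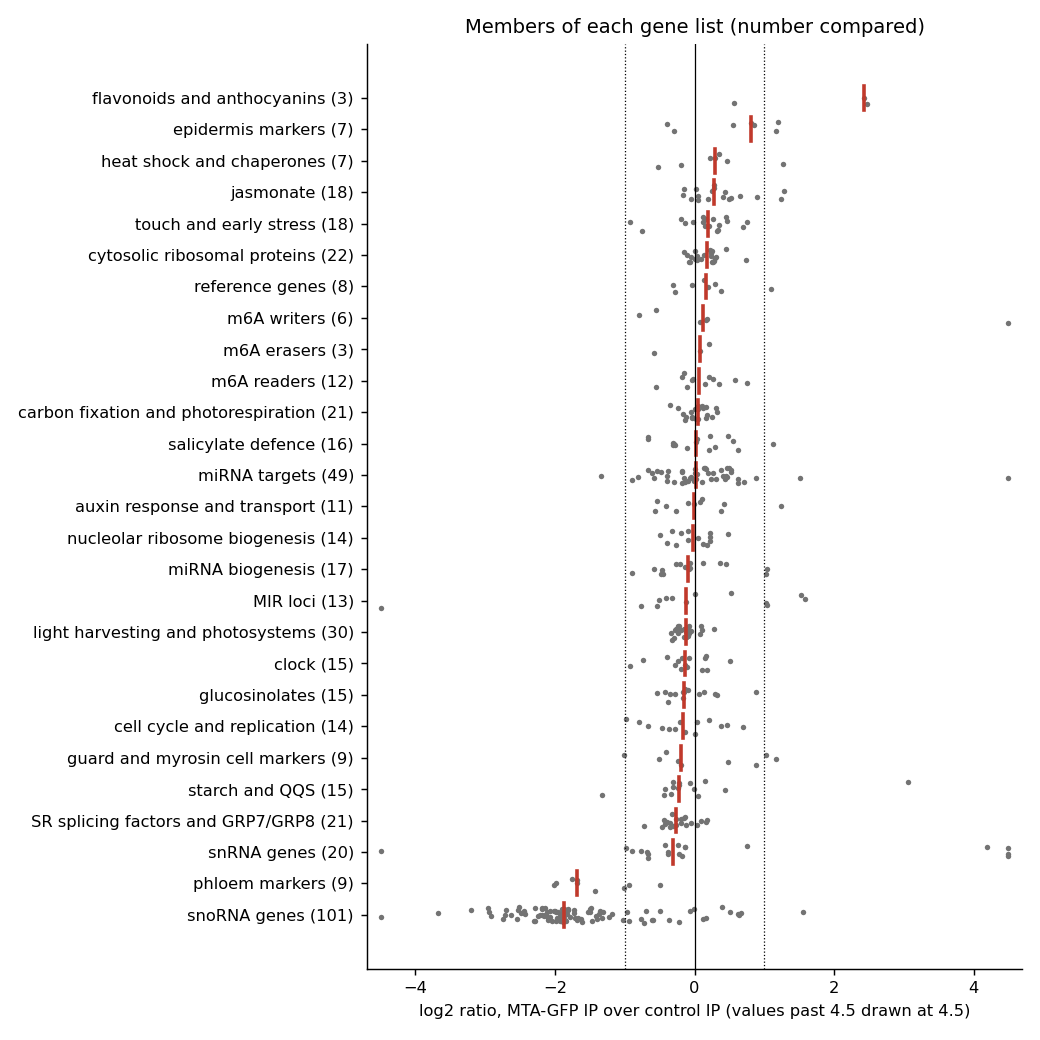
Log2 ratio of MTA-GFP IP over control IP for each member compared (points) of each gene list, with the list's median as a red bar. Dotted lines mark a 2-fold difference, and values past 4.5 are drawn at 4.5. The medians of the phloem markers (-1.68) and snoRNA genes (-1.86) lie below the 2-fold line, and that of the 3 flavonoid genes (2.44) above it.

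Genes that make microRNAs, or are their targets, had medians near that of all loci, of which 8.85% were called in either direction. The 17 microRNA biogenesis genes had a median of -0.09, and 2 of them were called higher. HEN1, the methyltransferase that protects the ends of small RNAs, had 67 and 8 reads and a ratio of 1.05 (0.01 to 2.34). MOS2, an RNA-binding factor of microRNA processing, had 107 and 13 reads and a ratio of 1.03. DCL1, which cuts microRNAs from their primary transcripts, had 838 and 390 reads and a ratio of -0.89 (-1.07 to -0.72). The 49 microRNA target genes had a median of 0.02, with calls of higher at 2 and of lower at 1. NF-YA8, a target of miR169, had 59 and 5 reads and a ratio of 1.52 (0.26 to 3.24). PHB, a leaf polarity gene targeted by miR165 and miR166, had 86 and 55 reads and a ratio of -1.34 (-1.86 to -0.84). The best covered targets were APS1, a sulfurylase (960 and 237 reads, ratio 0.02), and the auxin receptor TIR1 (711 and 124 reads, ratio 0.52). All 5 HD-ZIP III genes, the family of PHB, lay below 0 between -1.34 and -0.48, a set singled out after its values were seen, and only PHB was called.

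MicroRNA genes gave too few reads for most of them to be compared. Of 325 MIR loci, 98 had a read in either IP and 13 reached 40 reads. Of the 85 with fewer, 49.4% had reads in the MTA-GFP IP alone and 8.24% in the control IP alone, against 36.6% and 4.29% of all 9665 nuclear loci with a read below the minimum. MIR472 had 38 and 3 reads and a log2 ratio of 1.59 (0.01 to 4.01). It overlaps the protein-coding locus AT1G12290 (211 and 83 reads), and the run of loci that overlap here summed to -0.41 (-0.68 to -0.14). MIR157c had 48 and 4 reads and a ratio of 1.53 (0.14 to 3.52). MIR5642a, within 10 kb of a ribosomal RNA gene, had 119 and 2322 reads and a ratio of -6.27 (-6.56 to -6.02).

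The other 10 MIR loci were not called, and their intervals were wide. MIR170 (42 and 5 reads) stood at 1.04 (-0.26 to 2.77) and MIR163 (50 and 6 reads) at 1.03 (-0.16 to 2.57). MIR162a (58 and 10 reads) stood at 0.53 (-0.44 to 1.67), and MIR159a (60 and 15 reads) at 0.00 (-0.83 to 0.93). These 4 have the highest values of the uncalled loci. Below 0 lay MIR414 at -0.12 (44 and 12 reads), MIR159b at -0.40 (39 and 13 reads), MIR167d at -0.51 (39 and 14 reads), MIR775 at -0.54 (41 and 15 reads) and MIR166a at -0.77 (30 and 13 reads). MIR4228 had 5691 and 1787 reads and a ratio of -0.33 (-0.40 to -0.25). Over the 53 loci with a primary transcript model, 679 reads in the MTA-GFP IP and 150 in the control IP gave a summed ratio of 0.18 (-0.08 to 0.45). That interval leaves out a 2-fold difference in the sum. Over all MIR loci but MIR4228 and MIR5642a, 975 and 246 reads gave -0.01 (-0.21 to 0.20).

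Small nucleolar RNAs, which guide the modification of ribosomal RNA, formed the largest lower group. Of 287 snoRNA genes 101 were compared, 81 were called lower, against 3.51% of all loci, none was higher, and the median was -1.86. AT2G08770 had 11395 and 21953 reads and a ratio of -2.94 (-2.98 to -2.91). AT5G02565 had 6001 and 4198 reads and a ratio of -1.48 (-1.54 to -1.42). AT4G39363 was the lowest, with 13 and 434 reads and a ratio of -6.95 (-7.98 to -6.27). In the inputs the 46 snoRNA genes measured had a median of 1.18, with 27 higher and 1 lower. Of total reads, the snoRNA genes together took 0.132% with MTA-GFP and 0.128% with the control, so that their deficit is one relative to the other nuclear loci.

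Every locus compared at ribosomal DNA and in the mitochondrial insertion of chromosome 2 was lower relative to the other nuclear loci. Of total reads, ribosomal DNA took 38.8% with MTA-GFP and 24.2% with the control, so its direction turns on that scale. The 12 loci within 10 kb of ribosomal RNA genes, MIR5642a among them, were all called lower, with a median of -3.78. The ribosomal RNA gene AT3G41768 had 10684200 and 7710210 reads and a ratio of -1.53, while AT3G06355, also at ribosomal DNA, had 57772 and 233371 reads and a ratio of -4.01. All 23 loci of the insertion, whose sequence is nearly that of mitochondrial genes, were lower with a median of -3.51. Mitochondrial transcripts took 0.229% of reads with MTA-GFP and 1.03% with the control, and reads of the insertion cannot be told apart from theirs. AT2G01021, the other locus at ribosomal DNA with most reads, had 3118640 and 2697960 reads and a ratio of -1.79. AT2G01020 and AT3G41979, with nearly equal counts, both stood at -3.17. AT2G05215, the non-coding locus of the insertion, had 21 and 98 reads and a ratio of -4.16 (-4.97 to -3.53). AT2G01008 had 1095 and 8474 reads and a ratio of -4.95 (-5.04 to -4.86). Lower still were AT3G06325 at -5.42 (218 and 2353 reads), AT3G41762 at -5.36 (423 and 4351 reads) and AT3G41761 at -5.10 (20 and 180 reads). Outside these regions, the protein-coding AT2G16586 had 14575 and 132035 reads and a ratio of -5.18 (-5.20 to -5.15).

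The spliceosomal RNAs, which carry the catalysis of splicing, did not move as 1 group. The 20 snRNA genes compared had a median of -0.31, with 4 called higher and 1 lower. U6.4 had 10866 and 149 reads and a ratio of 4.19 (3.96 to 4.43), but U6.3, a further copy, had 2961 and 1194 reads and a ratio of -0.69 (-0.78 to -0.59). Since near-identical copies share reads, sums over all copies are the safer values. The U6 genes together had 13847 and 1343 reads, a ratio of 1.37 (1.29 to 1.45), and were also higher between the inputs, with 278 and 4 reads. The U5 genes summed to 0.75 (0.66 to 0.83), the U1 genes to -0.20 (-0.21 to -0.18), the U4 genes to -0.34 (-0.41 to -0.27) and the U2 genes to -0.75 (-0.78 to -0.72). The calls at U1.2 and U1.5 thus lie on copies of a family whose sum was near the typical locus. U1.2 had 621 reads and 0, 51.8-fold higher with the 0 taken as 3 reads, and U1.5 had 3 and 235 reads (-7.88). The U1 genes with most reads, U1.7 (73105 and 21633 reads) and U1.6 (69523 and 19206 reads), stood at -0.24 and -0.14. U4.6 had 65 reads and 0, 5.43-fold higher with the 0 taken as 3 reads, while the U4 genes summed to less than the typical locus.

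Of 180 other non-coding RNA genes outside the mitochondrial insertion, calls of lower fell on 28 and of higher on 18, against 3.51% and 5.34% of all loci. Their median was -0.09. AT1G15405, the one with most reads, had 271014 and 67598 reads and a ratio of 0.01 (-0.01 to 0.02), although its ratio between the inputs was 3.90. AT4G13495 had 4687 and 1646 reads and a ratio of -0.49 (-0.57 to -0.41). The lowest was AT3G59068, with 291 and 679 reads and a ratio of -3.22 (-3.42 to -3.02). AT2G07305 had 46 reads and 0, 3.84-fold higher with the 0 taken as 3 reads. It overlaps 3 other loci, and the run of overlapping loci had 131 and 17 reads, a summed ratio of 0.94 (0.21 to 1.77), below the 2-fold rule.

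Many of the largest single differences fell on loci that overlap another locus or have a near-identical copy, and the sum of such a pair lay much nearer the typical locus. These pairs were singled out after their values were seen. The overlapping non-coding locus AT4G36032 had 148 reads in the MTA-GFP IP and 0 in the control IP. With the 0 taken as 3 reads, AT4G36032 was 12.4-fold higher. ARO3, which it overlaps, had 3 and 37 reads and a ratio of -5.22. Summed, the pair had 151 and 37 reads and a ratio of 0.03 (-0.50 to 0.59). PGIP1, an inhibitor of fungal pectin-degrading enzymes, had 105 reads and 0, and the non-coding AT5G06865 across it had 35 and 41 reads. The pair summed to -0.22 (-0.74 to 0.31).

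At glucosyltransferase loci the partner was a non-coding locus below the minimum in the first 2 cases. UGT75B1 had 152 reads in the MTA-GFP IP and 0 in the control IP, 12.7-fold higher with the 0 taken as 3 reads. The overlapping non-coding locus AT1G05562 had 0 and 27, 35.9-fold lower with the 0 taken as 3 reads. In both inputs this pair's reads lay on UGT75B1, with 111 in the MTA-GFP input and 243 in the control input and 0 on AT1G05562. The sum gave 0.49 (-0.10 to 1.14). AT1G06000 had 161 reads and 0 and its partner AT1G06002 had 0 and 26, and the sum gave 0.63 (0.03 to 1.29). UGT76E11 had 45 reads and 0 against 30 and 19 at AT3G46668, with a sum of -0.02 (-0.76 to 0.79).

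Sums also lay nearer 0 than the single loci for other overlapping loci and for duplicate genes, but some kept an interval off 0. AFR, an F-box protein of far-red light signalling, had 101 and 1 reads and a ratio of 4.35 (2.15 to 9.98), and with the overlapping AT2G24545 the sum gave 0.36. ATBCAT-5, an aminotransferase of branched-chain amino acids, had 244 and 7 reads, a ratio of 3.08, and with LINC4, a nuclear lamina gene at -1.12, the sum gave 0.03 (-0.28 to 0.36). LpxC3 had 299 and 3 reads and LpxC4 23 and 119 reads, ratios of 4.53 and -4.31. The pair summed to -0.60 (-0.90 to -0.28) and the 5 LpxC genes together gave -0.09 (-0.25 to 0.07). AT2G05250 (215 and 1 reads, ratio 5.44) and AT2G05230 (19 and 45 reads, ratio -3.18) summed to 0.35 (-0.11 to 0.84). In the MTA-GFP and control inputs AT2G05250 had 47 and 1 reads and AT2G05230 had 0 and 48. SPL13A, a target of miR156, had 105 reads and 0, and with its duplicate SPL13B (473 and 99 reads) the sum gave 0.55 (0.24 to 0.87), while SPL13A with its overlapping locus AT5G50565 (61 and 18 reads) summed to 1.196 and kept its call of higher. AT5G36790 had 103 reads and 0, 8.60-fold higher with the 0 taken as 3 reads. With its duplicate PGLP1 (374 and 126 reads) the sum gave -0.08 (-0.36 to 0.22).

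**Figure D4:**
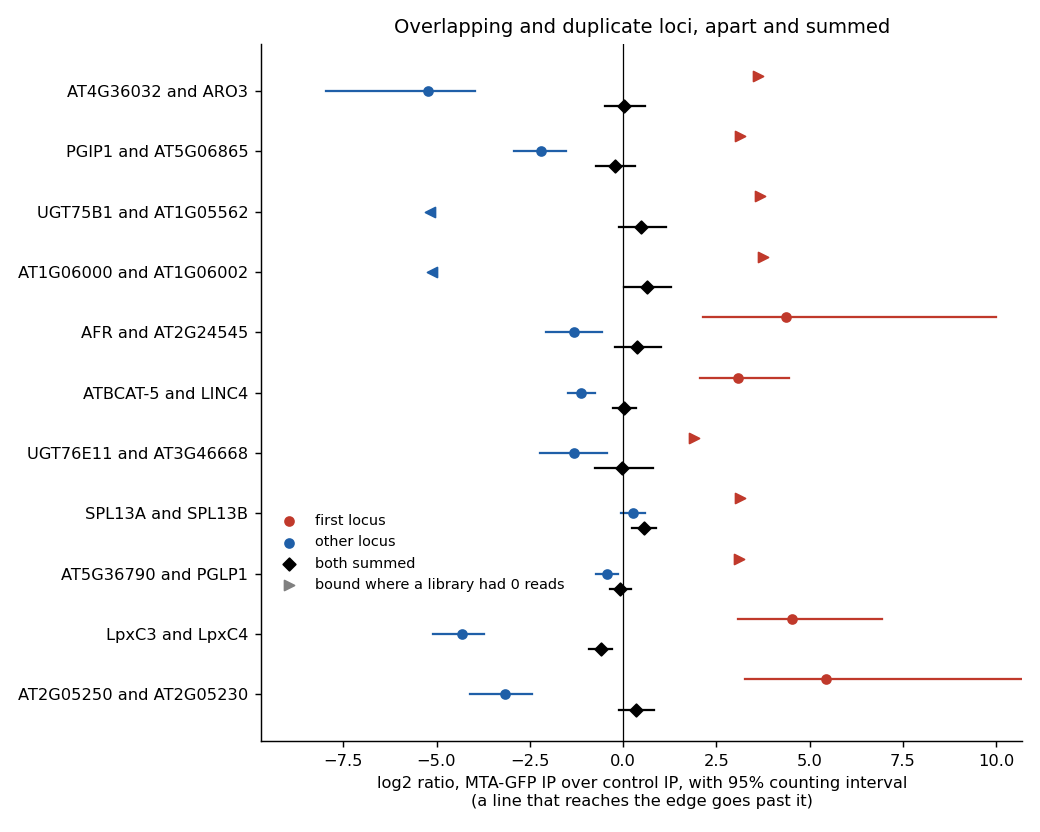
Log2 ratio of MTA-GFP IP over control IP for 11 pairs of overlapping or duplicate loci: the first locus named (red), the other locus (blue) and both summed (black), with 95% counting intervals. Triangles are bounds against 3 reads where a library had 0. The single loci reach past 4 in either direction, while the sums lie between -0.60 and 0.63.

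Of the 13768 loci compared, 31.2% overlap another locus with reads, as do 33.1% of the higher loci, 40.2% of the lower loci and 11 of the 18 higher loci that had 0 control reads. Once whole runs of overlapping loci were summed, 80 of the 243 higher loci that overlap another remained in a higher sum, and 119 of the 194 lower ones in a lower sum. No label states whether counting used the strand, so reads of overlapping loci cannot be told apart. Nor does any label state that both IPs were counted with 1 strand setting. At UGT75B1 with AT1G05562, and at AT1G06000 with AT1G06002, all reads lay on 1 locus in the MTA-GFP IP and on the other locus in the control IP, and the part of such a setting in the ratios of overlapping loci was not tested.

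Among protein-coding loci with reads in both libraries and no such partner singled out above, the highest calls rested on few control reads. AT5G45440 had 69 and 1 reads and a ratio of 3.81 (1.58 to 9.44). AT1G76240 had 59 and 1 reads and a ratio of 3.59 (1.35 to 9.21). HYD1, a sterol isomerase, had 94 and 3 reads and a ratio of 2.87 (1.38 to 5.28). Its neighbour AT1G20070 had 126 and 5 reads and a ratio of 2.60. Both were also called higher between the inputs, at 1.49 for HYD1 and 2.53 for AT1G20070. These 2 loci lie in 1 run of overlapping loci, which summed to 1.42 (0.81 to 2.12). Of the lowest loci, AT2G16586, given above, had 146610 reads over both IPs, and those given here ranged from 42 to 3568. PIL1, a transcription factor of the shade response, had 24 and 109 reads and a ratio of -4.13 (-4.88 to -3.53), against -0.25 between the inputs. AT5G61310 had 922 and 2646 reads and a ratio of -3.52 (-3.63 to -3.41), against 0.78 between the inputs. AT1G25150 had 9 and 33 reads and a ratio of -3.73 (-5.12 to -2.78). AT1G68945 had 114 and 366 reads and a ratio of -3.67, AT2G12905 had 38 and 104 reads and a ratio of -3.42 (-4.03 to -2.90), and AT5G06043 had 3 and 51 reads and a ratio of -5.68 (-8.41 to -4.46).

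Transcript length went with the ratio. Median log2 ratios of protein-coding loci were 0.27 for 1166 loci of 500 to 1000 nucleotides, 0.08 for 6767 loci of 1000 to 2000, -0.03 for 3699 of 2000 to 3000, -0.18 for 1523 of 3000 to 5000 and -0.35 for 232 longer ones. Among loci with at least 200 reads the first and last of these medians were 0.15 (208 loci) and -0.34 (211 loci). Between the inputs the medians over the same classes lay between 0.36 and -0.15. In the same order of classes the higher calls grew rarer. Of the loci of 500 to 1000 nucleotides 10.9% were higher, against 0.862% of those of 5000 and over. Depth differed too, with median reads of 85 and 743 in these 2 classes. Among loci with at least 200 reads the shares were 5.29% and 0%. The class below 500 nucleotides, not drawn, held 32 loci with a median of 0.54. Only 2 of these had at least 200 reads, with a median of -1.52.

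**Figure D5:**
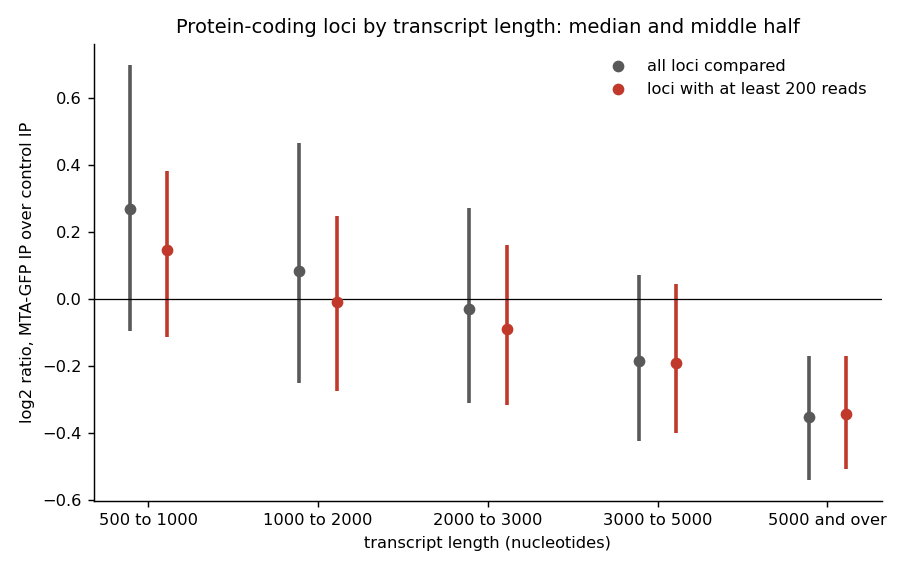
Median (points) and the range from the 25th to the 75th percentile (lines) of the log2 ratio between the IPs (MTA-GFP over control) for protein-coding loci in 5 classes of transcript length in nucleotides, for all loci compared (grey) and for those with at least 200 reads (red). The medians go from 0.27 to -0.35 over all loci and from 0.15 to -0.34 over the deeper ones.

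Most loci that were called between the IPs and measured in the inputs were not called in the same direction there. Of the 735 higher loci 403 were measured in the inputs, and of the 483 lower loci 334. The other called loci had too few input reads to be compared. Of the loci compared, 10815 also had 40 reads over the 2 inputs, where 6.92% were higher and 6.56% lower in the MTA-GFP line. Among 403 loci that were higher between the IPs and measured in the inputs, 64 were higher there too, which is 15.9% of them and 8.56% of the loci higher between the inputs, and 22 were lower. Among 334 loci that were lower between the IPs, 36 were lower in the inputs (10.8% of them and 5.07% of the loci lower between the inputs) and 46 were higher. Across the 10815 loci the 2 log2 ratios had a Pearson correlation of 0.10, given as a description over loci of 4 libraries.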

How the data were processed

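Each of the 4 deposited tables lists 55524 entries with, per the file headers, the estimated count (NumReads) and the TPM of each. Trimmomatic, Bowtie, HISAT2 and Salmon are named, with TAIR10, in the submitters' processing notes. Versions, roles and strand setting: not given in the sources used here. Salmon divides reads among near-identical entries, so values of copies are uncertain.

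Estimated counts were summed per nuclear locus (32548 loci) and rounded. The gene table of assembly TAIR10.1 held every one of them and supplied symbols, gene types and overlaps; its coordinates are not printed. Libraries were scaled with TMM factors (edgeR 4.0.16, R 4.3.3) over loci with at least 40 reads in the 2 IPs. With 0.5 reads added, log2 ratios were formed with exact conditional (Clopper-Pearson) 95% intervals. Shares have Wilson intervals and list totals have exact Poisson intervals. A bound against 3 reads in the empty library stands in for a ratio where one library had 0 reads. The end of the 95% interval lies nearer 0 than this bound, for UGT75B1 at 3.35 against 3.67 (log2). With such loci at their bound, no list's median changed. The inputs were scaled the same way over the loci compared. The calculation was tested on simulated counts. The deposited TPM, DESeq2 1.42.0 size factors, total reads, other minimums and other additions were alternatives.

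Named are the 10 highest and 10 lowest called loci by the end of the interval nearest 0, likewise among protein-coding loci with reads in both libraries, the 10 loci with most reads in each IP, MTA, all MIR loci compared, and up to 6 members per list (2 with most reads, 2 highest and 2 lowest called). Further members named in a list, and the sums of overlapping loci and copies, were picked once their values were known. The members, lists and rules were chosen with earlier results of these data known. No sequence is given.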

Additional observations from a re-analysis of the deposited data

Results flagged for a closer look

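Entries for structural RNA without a locus lie outside the comparison of loci, and took a larger share of the MTA-GFP IP than of the control IP. They took 45.1% of the MTA-GFP IP reads and 22.4% of the control IP reads. Without the 2 largest entries the shares were 8.86% and 3.28%. In the inputs the shares of all such entries were 34.1% (MTA-GFP) and 26.3% (control).

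For 14 gene lists the median log2 ratio of MTA-GFP over control had opposite signs between the IPs and between the inputs. The gaps were widest for the snoRNA genes (-1.86 between the IPs, 1.18 between the inputs), the phloem markers (-1.68 and 0.61) and light harvesting (-0.124 and 1.60). RNA gene lists among the others were MIR loci (-0.121 over 13 loci and 0.92 over 4) and snRNA genes (-0.309 over 20 and 0.60 over 16). The snoRNA medians cover 101 and 46 genes. For such lists the 2 medians do not cover the same loci. The m6A erasers had 0.0778 and -0.88, and the m6A readers 0.0650 and -0.21. Stress lists were touch (0.192 and -0.54), heat shock (0.294 and -0.31) and salicylate (0.0253 and -0.12). Of metabolism, starch had -0.220 and 0.35, and glucosinolates -0.148 and 0.15. Guard and myrosin cell markers had -0.195 and 0.19, and the 2 trichome markers -0.273 and 0.10. The difference was not tested for any list, since each group holds 1 library.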

How the results depend on the processing

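No paired analysis was possible because each group holds 1 library. Ratios are relative to the typical nuclear locus, and other scalings move all loci together. Scaling to total reads moved the median of all loci by 2.29 (log2) and gave 13493 higher and 31 lower loci. Scaling to reads on nuclear loci moved it by 1.44 and gave 11446 and 61, and scaling to nuclear protein-coding reads moved it by 0.32 and gave 1665 and 259. The share of calls that were higher went from 60.3% to 99.8%, 99.5% and 86.5%. Under total reads the list medians were 0.61 for phloem, 0.45 for snoRNA genes, 3.13 for epidermis, 2.198 for light harvesting and 2.15 for MIR loci, so that the first 2 turned, and MTA stood at 8.99. Under nuclear reads they were -0.25, -0.42, 2.27, 1.33 and 1.304, and MTA stood at 8.14. Under protein-coding reads light harvesting stood at 0.20. A minimum of 100 reads gave 289 higher and 227 lower loci, no minimum gave 845 lower loci with medians of -1.29 for snoRNA genes and 1.01 for MIR loci, and a 4-fold rule gave 137 and 102. With the minimum on scaled reads there were 495 higher and 511 lower loci, which took the higher share of calls to 49.2%. Deposited TPM, with 0.5 added, gave 48 higher and 31 lower loci, MTA at 3.06, and medians of -0.086 for phloem, 0.13 for epidermis, 0.93 for light harvesting and -0.54 for snoRNA genes. Under TPM the flavonoid median (-0.020), NF-YA8 (-0.020), SURF1 (-0.0079), UGT76E11 (-0.024), AT4G14090 (-0.020), HEN1 (-0.046), VSP2 (-0.0055) and TGG2 (0.027) shrank to small values of the opposite sign. Values so small give no direction, and the cause was not tested. Summing overlapping loci, an alternative added after seeing the data, left 599 higher and 390 lower. Outside the organelles the ratio of shares was 2.09 for nuclear mRNA and turned to 0.538 for snoRNA, from 1.03. Apart from the scalings, TPM and the minimum, no other alternative moved the 2 counts of calls by over 1.5 times, except the 4-fold rule. Depth limits single loci: the interval's median width was 1.99 (log2) for loci of 40 to 100 reads and 0.35 for loci of 1000 reads or more.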

Other observations

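A few more protein-coding loci, singled out after their values were seen, are given as values. The first 4 are genes of mitochondrial respiration picked for high ratios. They say nothing of other genes of respiration, which were not tallied. AT5G11770, a subunit of complex I, had 231 and 17 reads in the MTA-GFP IP and the control IP and a log2 ratio of 1.75 (1.06 to 2.57). COX10, which makes the haem of cytochrome oxidase, had 102 and 6 reads and a ratio of 2.04 (0.92 to 3.57). SDH8, a subunit of complex II, had 52 and 3 reads and a ratio of 2.03 (0.49 to 4.44), and with the overlapping AT2G46380 the sum gave 1.54 (0.71 to 2.54). SURF1, an assembly factor of cytochrome oxidase, had 56 and 1 reads and a ratio of 3.51 (1.27 to 9.14), and with its overlapping loci the sum gave 0.56 (0.16 to 0.98).

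Among well covered loci, ROC2, a cyclophilin, had 807 and 861 reads and a ratio of -2.09 (-2.23 to -1.95), against 40 and 20 reads in the inputs. AT1G79520 had 2484 and 2516 reads and a ratio of -2.02 (-2.10 to -1.94), against 1.04 between the inputs. EIF3G1, a subunit of translation initiation factor eIF3, had 336 and 347 reads and a ratio of -2.04 (-2.26 to -1.82). The carpel gene SHP1 had 327 and 247 reads and a ratio of -1.59 (-1.84 to -1.35), and in the run of loci overlapping it the sum gave -0.93 (-1.13 to -0.74). UNE15 (402 and 382 reads, ratio -1.92) and HTA4 (174 and 176 reads, ratio -2.01) are neighbours on chromosome 4. RLP23, a receptor of a microbial peptide, had 208 and 155 reads and a ratio of -1.57 (-1.88 to -1.26). On the other side, CLH1, a chlorophyllase, had 611 and 66 reads and a ratio of 1.21 (0.84 to 1.60). Between the inputs CLH1 was also called higher, at 1.02.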
